A study of Mus musculus with 9 samples.

Results

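The messenger RNA of Ppp1r10 and of 6 genes tied to the same phosphatase was followed in mouse embryonic stem cells. It was followed through a short treatment with GSK3 inhibitors. The 7 genes were taken by symbol from the deposited count table, where they were 7 of 52264 rows, and all 7 were among the 15366 genes with enough counts to be tested. Ppp1r10 was put forward because of its fall with CHIR in these same libraries. Its CHIR values are therefore given as a description, with no test. The other 6 genes were its known partners Tox4 and Wdr82, the PP1 catalytic subunit genes Ppp1ca, Ppp1cb and Ppp1cc, and Ppp1r8. Ppp1r8 encodes a separate nuclear regulator of PP1 and was not taken as a partner of Ppp1r10.

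The cells were embryonic stem cells labelled β-catenin-/-, a genotype that the control libraries carry too. Per the labels they were grown on feeder-treated dishes, expanded with 40 ng/ml LIF, 3 µM CHIR-99021 and 1 µM PD03, a MEK inhibitor, and kept in N2B27 medium overnight. They were then left untreated or given BRD0705, an inhibitor selective for GSK3α, or CHIR, which inhibits GSK3α and GSK3β, for 30 min, with no dose stated for this step. Each of the 3 groups has 3 libraries. The labels name no clone and do not say that replicates were separate cultures, so p-values measure only the spread between these libraries.

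Protein phosphatase 1 (PP1) is a small catalytic enzyme that gains its targets from regulatory subunits. Ppp1r10 encodes PNUTS, the scaffold that brings PP1 to chromatin together with the DNA-binding protein Tox4 and the WD-repeat protein Wdr82. This complex removes phosphate from RNA polymerase II and the elongation factor Spt5, which slows the polymerase past the polyadenylation site and helps transcription to end. Ppp1r8 encodes NIPP1, a separate nuclear regulator of PP1 found with splicing factors. In stem cells, as in other cells, PP1 also acts on the cell cycle, chromatin and the splicing machinery.

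Library totals ran from 17359422 to 20773337 counts. All 10 embryonic stem cell markers examined had counts in every library, with a summed level of 5006 to 5105 CPM in control, 5064 to 5210 CPM with BRD0705 and 5195 to 5401 CPM with CHIR, where CPM is the gene count relative to the scaled library total. Of these 10, Esrrb and Klf4 passed as higher with CHIR than control, and Esrrb, Klf4 and Tdgf1 as lower with BRD0705 than with CHIR. Over all tested genes, 2.52% were higher with CHIR and 2.97% lower with BRD0705 than with CHIR. Of 9 fits leaving out 1 library, the CHIR call of Esrrb was kept in 9 and that of Klf4 in 4. Between the inhibitors Klf4 was kept in 9, Tdgf1 in 4 and Esrrb in 1 (edgeR adjusted p up to 0.129). With a score of the fibroblast markers named next as a covariate, only Klf4 between the inhibitors kept its call. The part of these stem cell markers in the results was not tested. All 10 fibroblast markers, which feeder cells would bring, also had counts in every library. Their summed level was 2262 to 2721 CPM in control, 2866 to 2945 CPM with BRD0705 and 2563 to 3072 CPM with CHIR. All 10 had a positive fold change under each inhibitor. With BRD0705 1 passed, Col1a1, and with CHIR 2 passed, Col1a1 and Col6a2. Over all tested genes 0.690% were higher with BRD0705 and 2.52% with CHIR. Of 9 fits leaving out 1 library, Col1a1 was kept in 5 for each inhibitor and Col6a2 in 4. Both CHIR calls were lost with library size as the only scaling. In such bulk samples fewer cells of a type and less RNA per cell cannot be told apart. Ctnnb1, the gene named in the genotype, had reads in every library, at 303 to 371 CPM, and counts per gene do not show whether the deleted stretch was read.

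The sequence before the annotated Ppp1r10 gene is shown first because a second gene, described after the complex, begins on its other side. On GRCm38.p6, the RefSeq assembly of the mm10 build named in the submitters' processing notes, Ppp1r10 lies on the plus strand of chromosome 17 from 35916512 to 35932283. Its main transcript in GENCODE vM39 has 19 exons. Mrps18b, which encodes a mitochondrial ribosomal protein, runs the other way from 35916440 down to 35910380. The 71 bases between both annotated starts, chr17:35916441-35916511 on the plus strand, are taken from the RefSeq promoter window of Mrps18b, with capitals marking the matches named after it. The 2 transcript starts that the RefSeq promoter table holds for Ppp1r10 itself lie further right, at 35917196 and 35919272, which is 684 and 2760 bases into the annotated gene.

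Ppp1r10-Mrps18b interval: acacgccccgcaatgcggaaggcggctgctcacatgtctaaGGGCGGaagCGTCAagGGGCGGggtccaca

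The interval holds 2 GC boxes (GGGCGG) and 1 match to the cyclic AMP response element half-site (TGACG, here on the minus strand). Of 32851 RefSeq promoter windows of the same length, 20.7% hold the first motif and 8.23% the second on either strand. No match was found to a TCF/LEF site (CTTTGAT), which 0.779% of those windows hold, nor to the CCAAT box (CCAAT, held by 13.3%) or the TATA box (TATAAA, held by 4.41%). An NRF1 half-site (GCATGCGC, held by 1.22%) and an ETS motif (CCGGAAG, held by 3.81%) also had no match on either strand. The 250 bases before the first of the tabled Ppp1r10 starts lie inside the annotated gene and are not printed. They hold 2 GC boxes and 1 TATA box match, which 32.7% and 12.4% of windows of that length hold, and none of the other 5 motifs. A match describes letters only, and the matches in the printed interval do not overlap. RefSeq promoter windows were matched for 6 of the 7 genes.

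With CHIR, Ppp1r10 was far below the untreated level in every library, and none of the other 6 genes passed the test. The gene stood at 125, 120.1 and 132 CPM in control replicates 1 to 3 and at 39.9, 44.8 and 44.3 CPM in the CHIR replicates. The highest CHIR library was below the lowest control by a wide margin. The fitted level with CHIR was 34.2% of control, a log2 fold change of -1.55 ± 0.06 (SE, n = 3 against 3). Among the 9564 tested genes whose mean log2 CPM reached 3, this was the lowest fold change with CHIR, and among all 15366 it ranked 30 from the lowest.

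BRD0705 did not lower the gene. The BRD0705 libraries held 154, 143 and 140.5 CPM of Ppp1r10, all above the 3 controls. The log2 fold change against control was 0.21 ± 0.06 (SE, n = 3 against 3), or 1.16-fold, with a 95% interval of 0.09 to 0.34. It missed the threshold of an adjusted p of 0.05 (edgeR adjusted p 0.0843). DESeq2 and a fit without the low-count filter called it (adjusted p 0.0206 and 0.0279). With the fibroblast marker score as a covariate the fold change was 0.20 and the edgeR adjusted p 0.617. Between the inhibitors Ppp1r10 was 3.39-fold higher with BRD0705 than with CHIR, a log2 difference of 1.76 ± 0.06 (SE).

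The summed fibroblast markers of the CHIR libraries, 2563 to 3072 CPM, enclosed those of the BRD0705 libraries. With the marker score in the model, the log2 fold change of Ppp1r10 with CHIR was -1.56. Whether feeder cells had a part in these values was not tested.

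**Figure D1:**
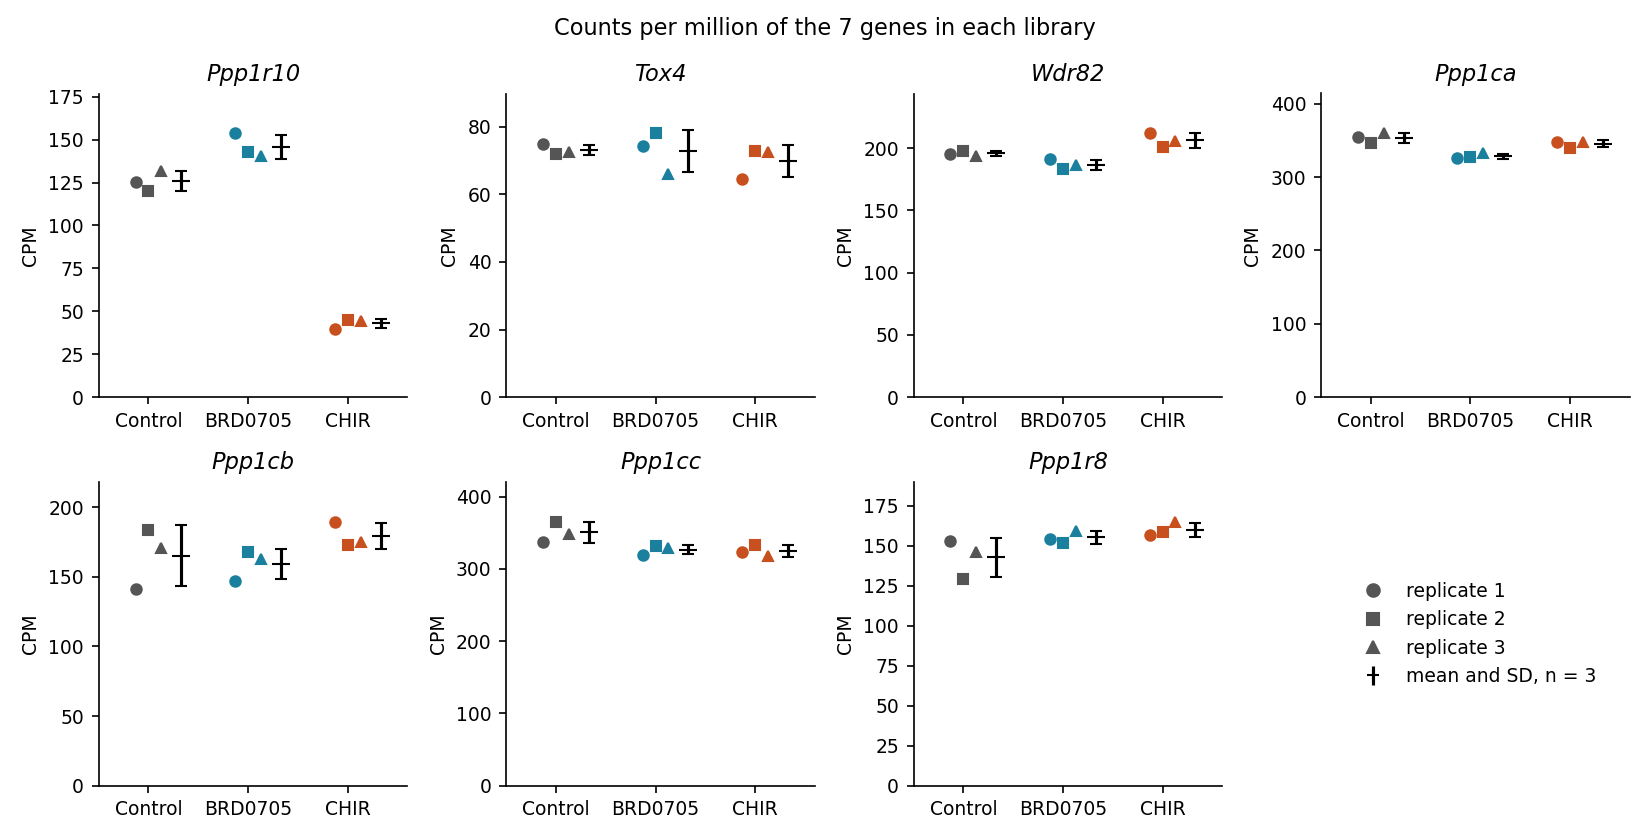
CPM (vertical axes, each from 0) of the 7 genes in each library, by group; marks give the replicate and bars the mean and SD of 3 libraries. Ppp1r10 lies at 39.9 to 44.8 CPM with CHIR against 120.1 to 132 CPM in control, while the fitted log2 fold changes of the other 6 genes lie between -0.17 and 0.17.

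For the whole complex, 1 of the 7 genes was called with CHIR against control, and that gene was Ppp1r10. Over all tested genes 6.30% were called in that comparison (2.52% higher and 3.78% lower), and since Ppp1r10 was chosen from it, nothing is read from the count. None of the 7 was called with BRD0705 against control by edgeR, where 1.22% of all genes were (0.690% higher and 0.534% lower). Of the 7, 2 had an unadjusted p under 0.05, Ppp1r10 and Ppp1ca, beside 15.9% of all genes, and DESeq2 called 1, Ppp1r10. Between the inhibitors 1 of 7 was called, again Ppp1r10 and again not read as a result, beside 7.77% of all genes (4.80% higher and 2.97% lower with BRD0705). Groups were fully separate in CPM for 4 of the 7 genes in each comparison. Over all tested genes that share was 25.1% with CHIR, 20.2% with BRD0705 and 26.7% between the inhibitors. The balance of directions over all genes depended on the scaling and on the method. With CHIR 387 were higher and 581 lower, against 252 and 702 with library size only. In edgeR with DESeq2-type size factors they were 435 and 531, and in DESeq2 itself 467 and 396. Between the inhibitors 738 were higher and 456 lower, against 912 and 239 with library size only.

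Tox4, which binds PNUTS and DNA, did not pass in any comparison. Its control libraries held 74.9, 72.0 and 72.5 CPM. With BRD0705 it had 74.4, 78.1 and 65.9 CPM, and with CHIR 64.4, 72.7 and 72.6 CPM, so the groups overlapped throughout. The log2 fold change with CHIR was -0.07 ± 0.07 (SE, edgeR adjusted p 0.653), with a 95% interval of -0.21 to 0.08. With BRD0705 it was -0.01 ± 0.07 (SE, edgeR adjusted p 0.974).

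Wdr82, a subunit shared between the PNUTS complex and the SET1 histone methyltransferase complexes, was lower with BRD0705 than with CHIR by a difference that edgeR did not call, opposite in direction to Ppp1r10. Control libraries were at 195, 198 and 194 CPM, BRD0705 libraries at 191, 183 and 186 CPM, and CHIR libraries at 212, 201 and 206 CPM. No library of one group fell inside the range of another. The log2 difference of BRD0705 minus CHIR was -0.14 ± 0.05 (SE), short of the threshold in edgeR (adjusted p 0.0834) and past it in DESeq2 (adjusted p 0.0348). Against control the fold changes were 0.08 with CHIR and -0.07 with BRD0705 (edgeR adjusted p 0.422 and 0.543).

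The catalytic subunits carry the phosphatase activity, and none of their genes passed in any comparison. Their coding sequences are alike, so reads could have been split among them. Ppp1ca had 355, 346 and 359.9 CPM in control, 326, 327 and 333 CPM with BRD0705 and 348, 339.9 and 348 CPM with CHIR. The 3 BRD0705 libraries were the lowest of the 9. The log2 fold change with BRD0705 was -0.11 ± 0.05 (SE, edgeR adjusted p 0.274), with a 95% interval of -0.21 to -0.01.

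Ppp1cc encodes the γ isoform of the enzyme. It stood at 337, 365 and 348 CPM in control, 319, 331 and 328 CPM with BRD0705 and 323, 333 and 318 CPM with CHIR. All 6 inhibitor libraries lay below the 3 controls. The fold changes were about equal, -0.10 ± 0.05 with BRD0705 and -0.11 ± 0.05 with CHIR (SE), and neither passed (edgeR adjusted p 0.327 and 0.221). Both use the same control libraries.

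Ppp1cb, the β isoform, was the least even of the genes other than Ppp1r10. The control libraries ranged from 141 CPM in replicate 1 to 184 CPM in replicate 2, with 171 CPM in replicate 3. BRD0705 libraries held 147, 168 and 163 CPM and CHIR libraries 173 to 189.7 CPM. The control range covered all 3 BRD0705 libraries and 2 of the 3 CHIR libraries. No comparison passed, the largest difference being -0.17 ± 0.08 for BRD0705 minus CHIR (SE, edgeR adjusted p 0.202).

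Ppp1r8, which encodes the other nuclear PP1 regulator, was the only one of the 7 genes with a higher mean than control under both inhibitors. Control libraries were at 153, 129 and 146 CPM, BRD0705 libraries at 154, 152 and 159.6 CPM and CHIR libraries at 157, 158 and 165 CPM. The CHIR libraries were all above the controls, while control replicate 1 was above BRD0705 replicate 2. The log2 fold change with CHIR was 0.17 ± 0.06 (SE, edgeR adjusted p 0.113). It was past the threshold in 1 of 18 alternatives, without control replicate 1 (edgeR adjusted p 0.0478). With BRD0705 it was 0.12 ± 0.06 (SE, edgeR adjusted p 0.333).

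**Figure D2:**
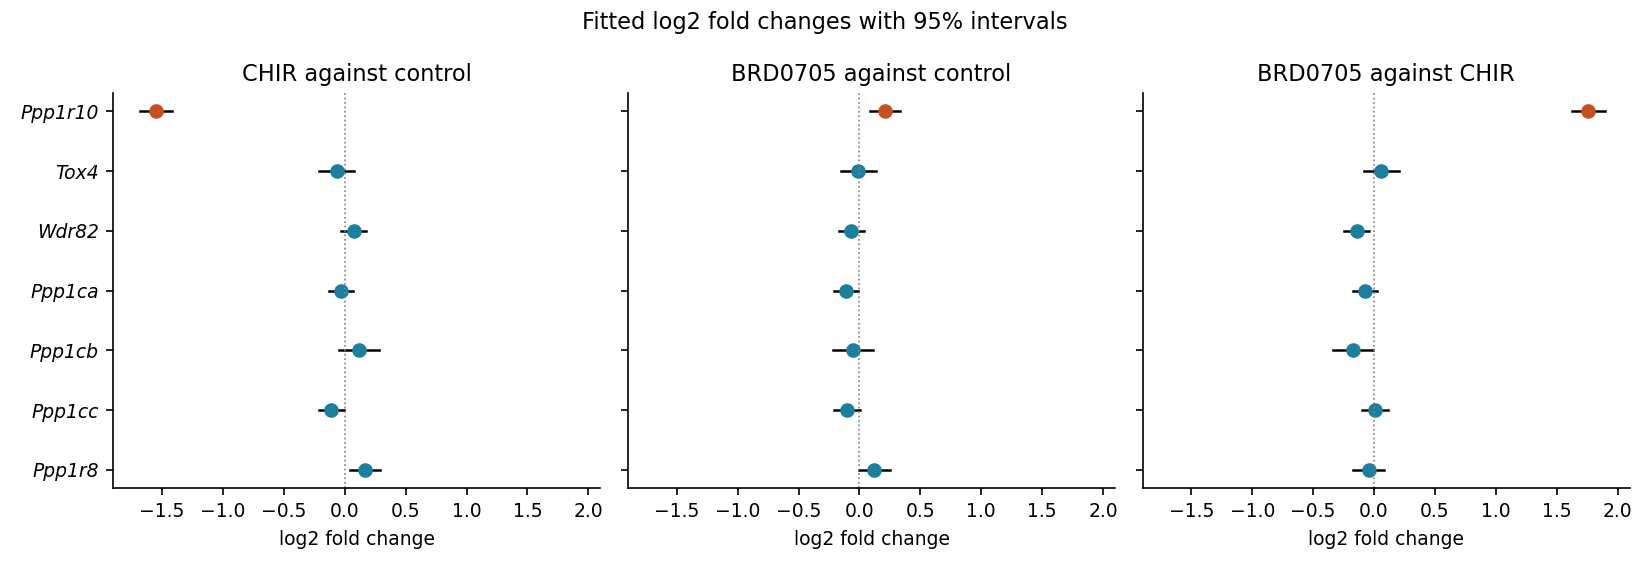
Fitted log2 fold changes (horizontal axes) of the 7 genes with 95% intervals as lines, in the 3 comparisons; the first name in each title is the numerator. Ppp1r10 sits at -1.55 with CHIR and 0.21 with BRD0705, while the values of the other 6 genes lie between -0.17 and 0.17.

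Counts can also be compared within a library, which removes scaling between libraries. For each read of Tox4 there were 1.72 ± 0.0838 reads of Ppp1r10 in control (SD, n = 3 for this and the next ratios), 2.01 ± 0.162 with BRD0705 and 0.615 ± 0.00472 with CHIR. For each read of Wdr82 the values were 0.643 ± 0.0371, 0.779 ± 0.0261 and 0.209 ± 0.0185, in the same order. In both ratios the 3 groups occupied separate ranges. Per read of Tox4 the gap was narrow, with the highest control at 1.817 just under the lowest BRD0705 library at 1.824. Against Ppp1r8 the values were 0.884 ± 0.0565, 0.938 ± 0.0583 and 0.268 ± 0.0143, and here control and BRD0705 overlapped. Per 100 reads of the 3 catalytic genes, Ppp1r10 had 14.5 ± 0.922 in control, 17.9 ± 1.31 with BRD0705 and 5.06 ± 0.374 with CHIR.

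Ratios among the partners moved by far less, and they were not tested. Tox4 had 0.374 ± 0.00993 reads per read of Wdr82 in control, 0.390 ± 0.0368 with BRD0705 and 0.340 ± 0.0315 with CHIR, and the highest CHIR library, at 0.363, lay just under the lowest control. Ppp1ca made up 40.7 ± 1.98% of the catalytic reads in control, 40.4 ± 0.753% with BRD0705 and 40.7 ± 0.643% with CHIR. The share of Ppp1cb was 19.0 ± 1.85%, 19.6 ± 0.883% and 21.1 ± 0.837% in that order, with the control range overlapping both inhibitors and the BRD0705 libraries just below those of CHIR. The share of Ppp1cc was 40.3 ± 0.621%, 40.1 ± 0.222% and 38.2 ± 1.02%, and its CHIR libraries were the lowest of the 9.

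**Figure D3:**
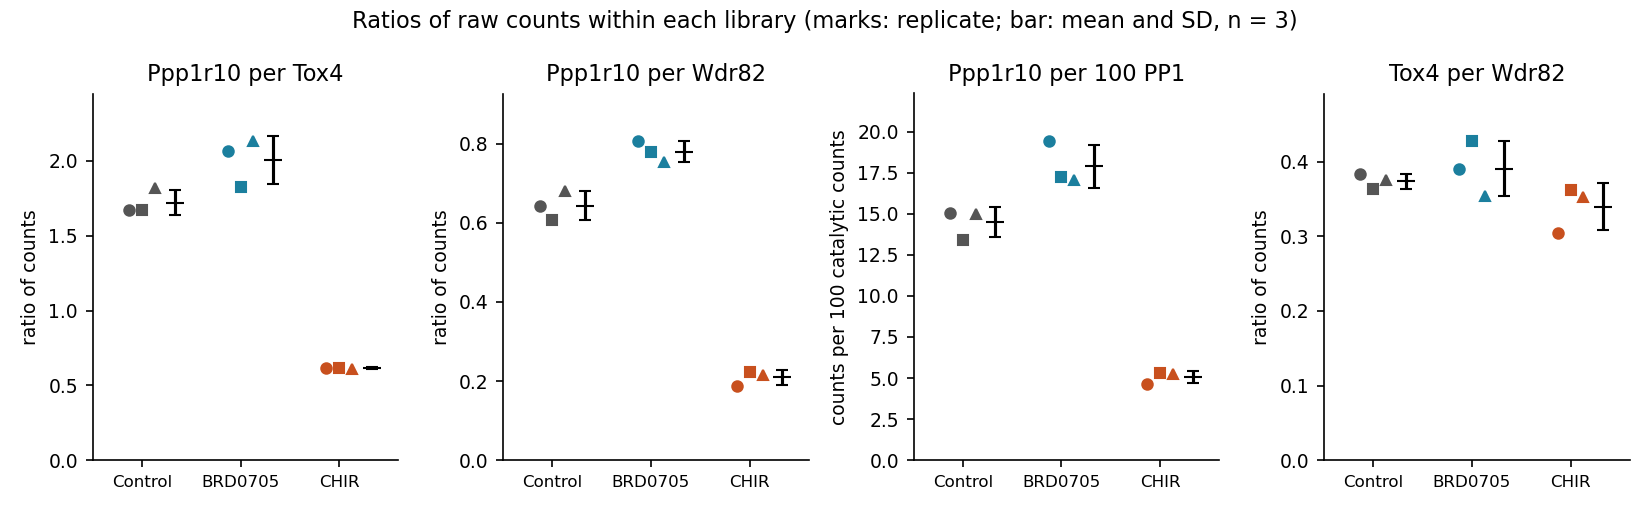
Ratios of raw counts within each library (vertical axes, each from 0) for Ppp1r10 against Tox4, Wdr82 and the summed PP1 catalytic genes, and for Tox4 against Wdr82; marks give the replicate and bars the mean and SD of 3 libraries. The 3 ratios with Ppp1r10 separate the CHIR libraries from the rest, and Tox4 per Wdr82 runs from 0.304 to 0.427 over all 9 libraries.

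Levels of different genes were compared per kilobase of annotated exon, since longer transcripts yield more reads. In control, Ppp1ca was highest at 139 ± 2.76 CPM per kilobase, followed by Ppp1cc at 94.0 ± 3.77, Ppp1r8 at 39.1 ± 3.34 and Wdr82 at 25.7 ± 0.296 (SD, n = 3 each). Ppp1r10 came next at 16.5 ± 0.766, then Ppp1cb at 14.6 ± 1.93 and Tox4 at 9.43 ± 0.199 CPM per kilobase (SD, n = 3 each). The ranges of mean and SD overlapped for Ppp1r10 and Ppp1cb, and not for the other neighbours in this order. The SD covers only the spread between libraries, and differences between genes were not tested. With CHIR, Ppp1r10 was at 5.64 ± 0.356 CPM per kilobase, below Tox4 at 9.01 ± 0.615 (SD, n = 3 each). Of the enzyme genes, Ppp1cb stood well below the other two per kilobase. Lengths came from GENCODE vM39, which is not stated to be the authors' annotation. With the main transcript alone as the length, control Ppp1r10 and Ppp1cb stood at 28.0 ± 1.30 and 27.7 ± 3.66 CPM per kilobase of transcript (SD, n = 3 each).

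Mrps18b, which starts beside Ppp1r10, did not pass in any comparison, and its CHIR libraries overlapped the controls. It had 132, 122 and 128 CPM in control, 120.5, 114 and 136 CPM with BRD0705 and 132, 133 and 129.8 CPM with CHIR. The log2 fold change with CHIR was 0.05 ± 0.06 (SE, edgeR adjusted p 0.723), with a 95% interval of -0.08 to 0.18. The next protein-coding genes are Atat1, a tubulin acetyltransferase gene 6425 bases to the left, and Abcf1, a translation factor gene 24535 bases to the right. They had log2 fold changes with CHIR of -0.12 ± 0.10 and 0.02 ± 0.06 (SE, edgeR adjusted p 0.543 and 0.908). Prr3, a proline-rich protein gene 40255 bases to the right, rose by 0.24 ± 0.06 (SE, edgeR adjusted p 0.0235). That call was lost with library size as the only scaling and without CHIR replicate 1 or 2 or control replicate 1 or 2 (edgeR adjusted p up to 0.0696). The microRNA gene Mir1894 lies inside Ppp1r10 and was listed at 0 counts in every library.

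Some partners overlap other genes, and the use of strand in the counting is not given in the sources used here. Tox4 overlaps Rab2b and Mettl3, and Ppp1ca overlaps Rad9a, all on the opposite strand. Rad9a, a DNA damage checkpoint gene, had 47.9 ± 1.87 CPM in control and rose to 65.3 ± 0.404 CPM with CHIR (SD, n = 3 libraries a group), by 0.45 ± 0.07 in log2 units (SE, edgeR adjusted p 0.000641). Rab2b, a Rab GTPase gene, rose by 0.46 ± 0.13 (SE, edgeR adjusted p 0.0374), a call that DESeq2 did not make and that 4 of the 9 fits leaving out 1 library kept (lost without CHIR replicate 1 or 2 or any 1 control, edgeR adjusted p up to 0.173). Their part in the values of Ppp1ca and Tox4 was not tested.

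Over the 9 libraries, the genes whose profile was most like that of Ppp1r10 were Zc3h4, Dido1, Bahcc1, Cdk5r2 and Ston1. They were the highest of 9543 genes by the Pearson correlation of log2 CPM, at 0.997, 0.996, 0.990, 0.989 and 0.988 over 9 libraries. These points share the 3 groups, so the values describe the low CHIR libraries. Dido1, which encodes a PHD finger protein with a TFIIS-like domain, had 310.3, 289 and 321 CPM in control and 114, 115 and 119 CPM with CHIR. Its BRD0705 libraries were at 306 to 339 CPM, within and above the control range.

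Zc3h4 encodes a zinc finger protein that binds Wdr82 in the restrictor complex, which ends unproductive transcription early. It had 169.97, 169 and 170.1 CPM in control, 191, 179 and 175 CPM with BRD0705 and 101, 102 and 101 CPM with CHIR. The 3 CHIR libraries were close to each other and far below the rest. Bahcc1, a chromatin protein gene, had 129 ± 4.99 CPM untreated and 91.6 ± 3.77 CPM under CHIR (SD, n = 3 libraries a group). The log2 fold changes of Cdk5r2, an activator of the kinase Cdk5, and Ston1, an endocytic adaptor gene, were -0.79 and -0.51 with CHIR. The 6 genes followed beside Ppp1r10 had correlations with it of -0.86 for Wdr82 to 0.39 for Tox4, over the same 9 libraries.

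**Figure D4:**
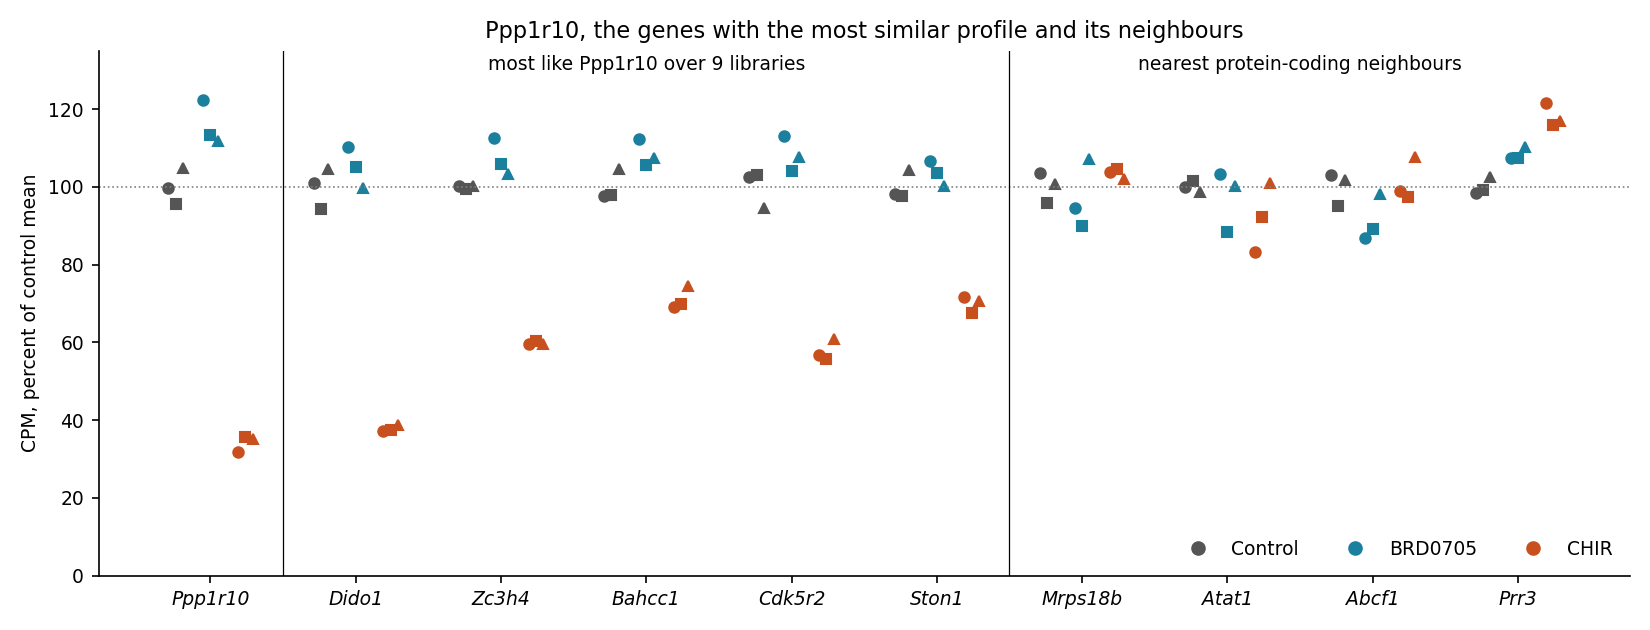
CPM as a percent of the control mean (vertical axis, from 0) for Ppp1r10, the 5 genes with the most similar profile and the 4 nearest protein-coding neighbours; each mark is a library, with the replicate as its shape and the group as its colour. With CHIR, Ppp1r10 and the 5 similar genes lie below their controls in all 3 libraries, and Mrps18b stays near 100.

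Genes around the complex were then examined by list. Each count is to be read beside the share of all tested genes. Against control this was 2.52% higher and 3.78% lower with CHIR, and 0.690% higher and 0.534% lower with BRD0705. Between the inhibitors it was 4.80% higher and 2.97% lower with BRD0705. At an unadjusted p under 0.05 it was 15.9% with BRD0705 against control. A count of 1 or 2 in lists this short is not read as particular to the list. With the fibroblast score as a covariate, the CHIR calls of Zc3h4, Pcf11, Cstf3, Cdk12, Ssu72, Ppp1r15a and Rad9a were kept. All other CHIR calls named for the lists and neighbours were lost with it, where 240 genes in all were called against 968 without it. Of 10 genes that work with Wdr82 in the SET1 or restrictor complexes, 1 fell and none rose with CHIR (6.30% of all genes were called). That gene was Zc3h4 (edgeR adjusted p 8.49e-08), at -0.74 ± 0.05 on the log2 scale (SE), and it passed in all 18 alternatives. The median of the list was 0.07, against -0.01 for all genes tested. Setd1a and Setd1b, the methyltransferases, had fold changes of 0.14 and 0.10 (edgeR adjusted p 0.347 and 0.486). No gene of this list was called with BRD0705 by edgeR, DESeq2 or limma, and 3 had an unadjusted p under 0.05. Between the inhibitors Zc3h4 was higher with BRD0705 by 0.84 ± 0.05 (SE, edgeR adjusted p 1.34e-08). Wdr5 was lower by 0.18 (SE 0.05, edgeR adjusted p 0.0389), a call held without BRD0705 replicate 3 or control replicate 1 but lost without any other 1 library (edgeR adjusted p up to 0.141), with library size as the only scaling, with only the groups compared in the fit and with the fibroblast score.

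The machinery that cleaves messenger RNA and ends transcription had 3 of 16 genes past the threshold with CHIR, of which 2 fell and 1 rose (3.78% and 2.52% of all genes). Pcf11, a termination factor that bridges polymerase and nascent RNA, fell from 72.0 ± 3.44 to 49.0 ± 2.02 CPM (SD, n = 3 libraries a group). This is -0.55 ± 0.06 in log2 units (SE, edgeR adjusted p 3.81e-05). Cstf3, a cleavage stimulation factor subunit, fell from 93.6 ± 2.24 to 73.6 ± 3.71 CPM (SD, n = 3 libraries a group), or -0.35 ± 0.06 in log2 units (SE, edgeR adjusted p 0.00178). Both passed in all 18 alternatives and stood near control with BRD0705, at 72.8 ± 3.17 and 90.3 ± 5.27 CPM. Cpsf4, a polyadenylation factor subunit, rose by 0.22 ± 0.06 (SE, edgeR adjusted p 0.0247), a call lost with library size as the only scaling and without CHIR replicate 2 or control replicate 2 or 3 (edgeR adjusted p up to 0.101). The median of the 16 was -0.02. None was called with BRD0705 by edgeR, DESeq2 or limma, with 3 at an unadjusted p under 0.05. Between the inhibitors Pcf11, Cstf3 and Wdr33 were higher with BRD0705, by 0.57, 0.30 and 0.23 (edgeR adjusted p 1.88e-05, 0.00510 and 0.0166), and only Wdr33 lost its call in the fits that left out 1 library, without CHIR replicate 1 or 2 (edgeR adjusted p up to 0.0897).

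The next list held 13 genes: Polr2a, elongation factor genes and genes of enzymes that set the phosphorylation of RNA polymerase II. With CHIR 1 rose and 1 fell (2.52% and 3.78% of all genes). Cdk12, an elongation kinase, rose from 190.0 ± 2.97 to 259 ± 16.1 CPM (SD, n = 3 libraries a group), by 0.45 ± 0.07 in log2 units (SE, edgeR adjusted p 0.000548). Ssu72, a polymerase phosphatase, fell from 106 ± 5.79 to 86.7 ± 2.90 CPM (SD, n = 3 libraries a group), or -0.29 ± 0.06 in log2 units (SE, edgeR adjusted p 0.00796). Both passed in all 18 alternatives. Supt5, the gene of the PNUTS substrate Spt5, had a fold change of 0.18 ± 0.07 (SE, edgeR adjusted p 0.147), and Polr2a, that of the polymerase itself, 0.05 ± 0.14 (SE, edgeR adjusted p 0.897). The list median was 0.04. Between the inhibitors Ssu72 and Ctdp1, another polymerase phosphatase, were higher with BRD0705, by 0.29 and 0.21, and Cdk12 was lower, at -0.33 (edgeR adjusted p 0.00629, 0.0322 and 0.00462). The call of Ctdp1 was lost without BRD0705 replicate 1 or 3 or CHIR replicate 1 or 2 (edgeR adjusted p up to 0.135). With BRD0705 none of the 13 was called by edgeR, DESeq2 or limma, and 0 had an unadjusted p under 0.05.

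The other PP1 regulatory subunit genes were taken as every row whose symbol starts with Ppp1r. Of 47 such rows besides Ppp1r10 and Ppp1r8, 29 were tested, and with CHIR 4 rose and 1 fell (2.52% and 3.78% of all genes), with a list median of -0.05. Ppp1r15a, the stress-induced subunit that directs PP1 to the translation factor eIF2α, rose from 58.2 ± 1.26 to 74.7 ± 1.91 CPM (SD, n = 3 libraries a group), by 0.36 ± 0.06 in log2 units (SE, edgeR adjusted p 0.00113), and passed in all 18 alternatives. Ppp1r16a, a myosin phosphatase targeting subunit, rose by 0.27 ± 0.06 (SE, edgeR adjusted p 0.0110) and passed whichever library was left out. Ppp1r12c and Ppp1r37 rose by 0.22 and 0.21 (edgeR adjusted p 0.0365 and 0.0466). Both calls were lost without any 1 CHIR library or control replicate 2 or 3 (edgeR adjusted p up to 0.144), and with library size as the only scaling. Ppp1r26, a nucleolar subunit, fell by 0.66 from 6.27 ± 0.812 to 3.97 ± 0.197 CPM (SD, n = 3 libraries a group; edgeR adjusted p 0.0168). That call was lost without CHIR replicate 2 or control replicate 2 or 3 (edgeR adjusted p up to 0.0948).

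With BRD0705, 1 of the 29 rose (0.690% of all genes). Ppp1r13l, the p53 inhibitor iASPP, rose by 0.41 ± 0.07 (SE, edgeR adjusted p 0.00920), and was lost without BRD0705 replicate 1 or control replicate 2 (edgeR adjusted p up to 0.0677) and with the fibroblast score (edgeR adjusted p 0.369). Between the inhibitors 4 of the 29 were higher and 5 lower with BRD0705 (4.80% and 2.97% of all genes). Ppp1r15a was lower by 0.31 (SE 0.06, edgeR adjusted p 0.00324) and Ppp1r13l and Ppp1r26 were higher, with log2 differences of 0.33 and 0.69 (edgeR adjusted p 0.00830 and 0.0119). Without BRD0705 replicate 1 the latter pair lost their calls (edgeR adjusted p up to 0.0597), as Ppp1r26 did without BRD0705 replicate 3 or CHIR replicate 2. Ppp1r9b and Ppp1r11 were higher by 0.23 and 0.25 (edgeR adjusted p 0.0244 and 0.0409), kept in 6 and 5 of the 9 fits leaving out 1 library. Ppp1r16a, Ppp1r37 and Ppp1r14b were lower, at -0.22, -0.22 and -0.25 (edgeR adjusted p 0.0354, 0.0366 and 0.0440), kept in 5, 4 and 3 of those fits. The largest edgeR adjusted p of these 5 genes in those fits was 0.186. In 3 of the 9 fits the library left out was a control, which is not part of this comparison. Ppp1r9b, Ppp1r11, Ppp1r16a and Ppp1r37 kept their calls in all 3 of those. The fifth lower gene, Ppp1r15b, was kept in 1 of the 9 fits leaving out 1 library, the one without control replicate 1. It was kept in 5 of the 9 alternatives of other kinds.

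Of 14 genes whose proteins take PP1 to other places, such as kinetochores and nucleoli, 1 fell with CHIR (3.78% of all genes). Knl1, the kinetochore scaffold, fell by 0.32 (SE 0.08, edgeR adjusted p 0.0222), a call lost without CHIR replicate 1 or 3 or control replicate 2 or 3 (edgeR adjusted p up to 0.118). The list median was -0.16. With BRD0705 none was called by edgeR, DESeq2 or limma, with 2 at an unadjusted p under 0.05. Among 11 genes of other serine/threonine phosphatases, Ints6, an Integrator subunit that recruits PP2A to polymerase, fell by 0.36 with CHIR (SE 0.08, edgeR adjusted p 0.0102), a call lost without CHIR replicate 2 or control replicate 2 or 3 (edgeR adjusted p up to 0.0676). It was higher with BRD0705 than with CHIR by 0.32 (SE 0.08, edgeR adjusted p 0.0188), lost without BRD0705 replicate 2 or 3 or CHIR replicate 2 or 3 (edgeR adjusted p up to 0.0933). The PP2A catalytic genes Ppp2ca and Ppp2cb had fold changes of 0.02 and -0.10 (edgeR adjusted p 0.916 and 0.368). With BRD0705 none of the 11 was called by edgeR, DESeq2 or limma, with 1 at an unadjusted p under 0.05.

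Of 8 genes whose proteins are reported to bind PNUTS or NIPP1, 2 fell with CHIR (3.78% of all genes). Terf2, a telomere protein, fell by 0.26 (SE 0.06, edgeR adjusted p 0.0172), a call lost without CHIR replicate 1 or 3 or control replicate 2 (edgeR adjusted p up to 0.108). Myc, whose protein PNUTS and PP1 dephosphorylate, fell by 0.25 (SE 0.07, edgeR adjusted p 0.0476), and was not called by DESeq2 or limma. Of the fits that left out 1 library, only those without BRD0705 replicate 1 or control replicate 2 called it (edgeR adjusted p up to 0.175 in the others). Between the inhibitors both were higher with BRD0705, Terf2 by 0.31 ± 0.06 (SE) and Myc by 0.47 ± 0.07 (SE; edgeR adjusted p 0.00446 and 0.000571), and both passed in all 18 alternatives. With BRD0705 none of the 8 was called by edgeR, DESeq2 or limma, with 1 at an unadjusted p under 0.05. Of the Tox4 relatives Tox, Tox2 and Tox3, 2 were tested and none was called in any comparison by edgeR, DESeq2 or limma, with 0 at an unadjusted p under 0.05.

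**Figure D5:**
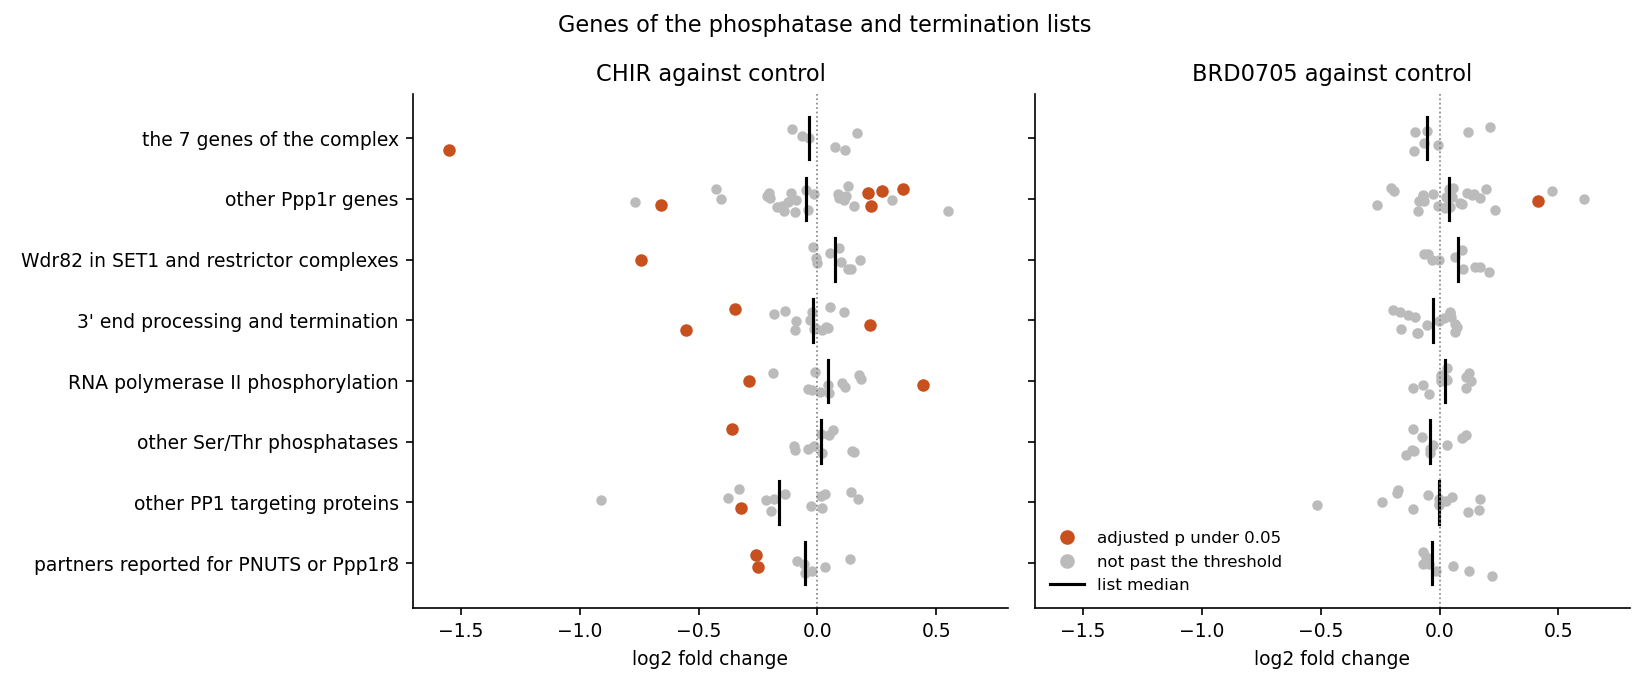
Log2 fold changes (horizontal axes) of the 7 genes and of the tested genes of 7 lists, without the marker lists, with CHIR and with BRD0705 against control; coloured points passed an adjusted p of 0.05 and the black bar is the list median. Ppp1r10 at -1.55, Zc3h4 at -0.74, Ppp1r26 at -0.66 and Pcf11 at -0.55 are the lowest coloured points with CHIR, and the only coloured point drawn for BRD0705 is Ppp1r13l.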

How the data were processed

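RNA sequencing of 9 libraries, 3 per group, was analysed. The labels name polyA RNA as the molecule and a ribosomal RNA depletion kit in the protocol, so the share of unspliced RNA in the counts is not known. The authors deposited whole-number read counts per gene symbol, and a second table, treated as a signal, in which each library's counts are divided by 1 factor. That factor matched a median-of-ratios size factor. The submitters' processing notes name RSEM, DESeq2 and mm10. The aligner, annotation and strand setting are not given in the sources used here.

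Counts were fitted with edgeR 4.0.16 in R 4.3.3 (TMM scaling, filterByExpr with a minimum count of 10, quasi-likelihood F test, 3 group means over all 9 libraries, 6 residual degrees of freedom). Tests were 2-sided, with Benjamini-Hochberg adjusted p-values over all 15366 tested genes and a threshold of 0.05. Each standard error is the absolute log2 fold change over the square root of F. CPM was computed on TMM-scaled totals, with a prior count of 2 on the log2 scale. Alternatives were DESeq2 1.42.0, limma 3.58.1 on log2(normalized value + 1 or + 0.1), other scalings, filters and covariates, and leaving out each library. Named genes other than these 7 were given the same alternatives, chosen after seeing the data.

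The genes and lists were chosen with earlier results of these data known. Named were the 7 genes, the 5 genes most correlated with Ppp1r10 (symbol on 1 row, mean log2 CPM of at least 3), genes of the phosphatase and termination lists past the threshold (at most 4 a direction and comparison by adjusted p), and annotated neighbours or overlapping genes. Setd1a, Setd1b, Supt5, Polr2a, Ppp2ca and Ppp2cb were named for their role, and Ppp1r15b and the stem cell markers to complete counts, after their values were seen. Total counts per library ran from 17359422 to 20773337. Simulated CHIR data had 15202 genes tested, with 100 genes changed at each size. There edgeR recovered 100% of log2 changes of size 1 and 96% of size 0.5, while 5.77% of calls were false. No smaller size was simulated, so these shares do not cover the smaller differences of the 6 genes other than Ppp1r10.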

Additional observations from a re-analysis of the deposited data

How the results depend on the processing

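The fall of Ppp1r10 with CHIR and its difference between the inhibitors kept their direction under all 18 alternatives, at log2 values of -1.58 to -1.49 and 1.71 to 1.79. The number of the 7 genes called was 1 in place of 0 for BRD0705 against control with DESeq2 and without the low-count filter (Ppp1r10 both times), 0 in every fit that left out 1 library, and 2 in place of 1 between the inhibitors with DESeq2 (Wdr82 added). For CHIR against control it was 1 to 2 over the fits that left out 1 library, with Ppp1r8 added without control replicate 1. Between the inhibitors those fits all gave 1. Over all genes, 188 were called with BRD0705 against control, 474 with DESeq2, 609 without the low-count filter, 0 with the fibroblast score as a covariate and 21 to 305 when leaving out 1 library. With CHIR 968 were called, 240 with the fibroblast score and 514 to 1070 when leaving out 1 library. Between the inhibitors 1194 were called, and 616 to 1313 when leaving out 1 library. With the replicate number as a block these counts were 222, 973 and 1177, and the same members were called as without it. Libraries of equal number did not deviate together, with correlations of -0.0897 to 0.0802 over 9 pairs after group means were taken off, and no label ties them to a shared day or culture.

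Directions changed only for differences near 0 that passed in no fit. Tox4 with BRD0705 was 0.011 with the fibroblast score and -0.055 to 0.069 when leaving out 1 library, and with CHIR it was -0.088 to 7.71e-05 when leaving out 1 library. Ppp1cb with BRD0705 was 0.10 with the fibroblast score and -0.15 to 0.040 when leaving out 1 library. Ppp1cc between the inhibitors was -0.000381 with DESeq2, -0.000313 with limma at either pseudocount and -0.011 to 0.024 when leaving out 1 library. With 3 libraries a group, the log2 95% intervals of the genes other than Ppp1r10 reached -0.33 at the lowest and 0.29 at the highest. Their standard errors were 0.05 to 0.08, so small differences may have been missed.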
